A study of Mus musculus with 4 samples.

Results

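Messenger RNA levels of 7 interferon-inducible mouse genes were followed in 3T3 cells given recombinant lymphotoxin LTα1β2. They were 4 guanylate-binding protein genes (Gbp2, Gbp3, Gbp5 and Gbp7), 2 immunity-related GTPase (IRG) genes (Irgm1 and Igtp) and the schlafen gene Slfn2. The members were listed by symbol, and all 7 were found among the 12208 genes of the table. The study had 4 groups with 1 library in each: control cells at 24 h, control cells at 48 h, cells given LTα1β2 for 24 h and cells given LTα1β2 for 48 h. The series title names the agent as the recombinant human protein and the cells as osteoblast precursors. The labels give neither its dose, nor what the control cells received, nor a clone, and all 4 groups carry no other treatment or allele in the labels.

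Guanylate-binding proteins are large GTPases of the dynamin superfamily that assemble on vacuoles holding microbes, on free bacteria and on damaged membranes. IRG proteins are smaller GTPases that mouse cells load onto such vacuoles. Irgm1 and Igtp (Irgm3) belong to the regulatory branch that sits on the cell's own membranes and holds the effector IRG proteins in check. Schlafen proteins restrain cell growth and translation, and Slfn2 is best known in the mouse for keeping T cells quiescent. The genes of these families are induced by interferons through STAT and IRF factors, which bind interferon-stimulated response elements (ISRE) and gamma-activated sites (GAS). Lymphotoxin LTα1β2 is a membrane ligand of the TNF family, and its receptor LTβR signals mainly through NF-κB.

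The promoter stretches of the 7 genes are shown because they hold, or in 1 case lack, an exact match to the ISRE core. They are RefSeq sequence of GRCm38.p6, written 5′ to 3′ on the strand of the gene. Capitals mark the ISRE core, searched on both strands as GAAA, any 2 bases and GAAA, with overlapping matches allowed. It reads TTTC, any 2 bases and TTTC where it lies on the opposite strand. The stretches are chr3:142620597-142620620 (+) for Gbp2, chr3:142559992-142560021 (+) for Gbp3, chr3:142496762-142496785 (+) for Gbp5, chr3:142530276-142530299 (+) for Gbp7, chr11:48871428-48871457 (-) for Irgm1 and chr11:58199515-58199538 (+) for Igtp. The Slfn2 stretch, chr11:83065012-83065111 (+), is the 100 bases just before the start and holds no match. The gene spans given below come from another annotation (GENCODE), whose starts can differ from the RefSeq starts. The Gbp5 and Irgm1 stretches lie inside those spans, and the Gbp2 stretch does in part.
Gbp2: cttttagTTTCACTTTCactgtct
Gbp3: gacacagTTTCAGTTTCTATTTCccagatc
Gbp5: tgtgtagTTTCAATTTCagtttag
Gbp7: tgtgcagTTTCAGTTTCagttctc
Irgm1: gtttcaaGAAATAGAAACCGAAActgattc
Igtp: aggaactGAAACTGAAAgctgttc
Slfn2: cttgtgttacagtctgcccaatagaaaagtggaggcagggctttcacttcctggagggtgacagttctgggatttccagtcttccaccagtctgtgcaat

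In windows from 250 bases before to 50 bases after the RefSeq start, 6 of the 7 genes held an ISRE core and Slfn2 did not. Of all 32851 windows of that length, 3.44% held it. That share counts windows, while the 7 are counted as genes, and Gbp3 has a second window that held no match. The match began at base -59 for Gbp2, -45 for Gbp3, -165 for Gbp5, -53 for Gbp7, -30 for Irgm1 and -34 for Igtp, counting -1 as the base before the start. Gbp3 and Irgm1 each held a second, overlapping match, from -39 and -24. The 4 Gbp genes carried the core on the strand opposite to the gene and the 2 IRG genes on the gene's own strand. GAS, searched as TTC, any 3 bases and GAA, lay in the windows of Gbp5, Gbp7 and Igtp and in 8.30% of all windows. The NF-κB consensus, searched as GGG, a purine, any 2 bases, 2 pyrimidines and CC, lay in those of Gbp2 and Gbp5. It lay in 8.46% of all windows. Only exact matches were counted, so near or shorter matches are not shown. A match is a description of letters and not a bound site, and a window without one says nothing about a factor acting elsewhere.

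**Figure D1:**
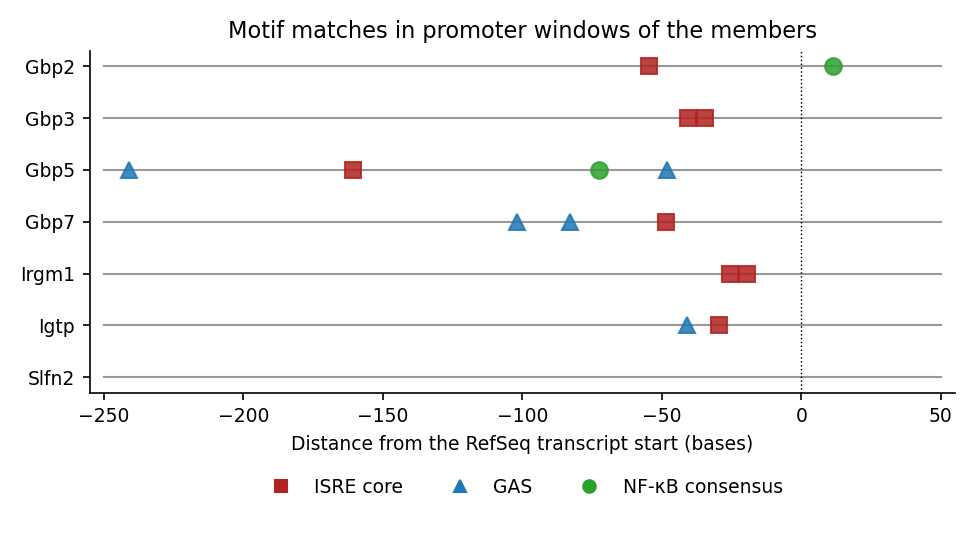
Positions of motif matches in the promoter windows of the 7 genes, as distance in bases from the RefSeq start. Each mark is 1 match of the ISRE core, GAS or NF-κB consensus, and Slfn2 is the gene without an ISRE core. The second window of Gbp3, which held no match, is not drawn.

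The 4 libraries held 11355974 to 15995777 recovered reads, with the fewest in LTα1β2 at 48 h. The table lists no gene at 0, and the lowest value of each library was 9 to 12 reads. Genes below that floor are not analysed here, so a gene that is not listed may still have had reads. Of 9 osteoblast-lineage markers 7 were listed, with a summed level of 37165 CPM (counts per 1000000) in control at 24 h, 36406 at 48 h, 26674 with LTα1β2 at 24 h and 22670.5 at 48 h. Col1a1 (15684 CPM in control at 24 h) and Col1a2 (16407) made up most of this sum. Alpl and Ibsp were not listed, and in the limma test Col1a1, Runx2 and Sp7 fell and none of the 7 rose. With 10 prior degrees of freedom Sp7 alone passed, and Spp1, which did not pass, had ratios of 1.16 and 1.45 to control at 24 h and 48 h. Of 5 fibroblast markers 3 were listed (Pdgfra, Pdgfrb and Dcn). They summed to 451 CPM in control at 24 h, 446 at 48 h, 408 with LTα1β2 at 24 h and 319 at 48 h. Pdgfrb fell in the limma test, but did not pass with 10 prior degrees of freedom, and no fibroblast marker rose. Of 8 macrophage and leukocyte markers 4 were listed (Cd68, Csf1r, Lyz2 and Cd14), summing to 72.1 CPM in control at 24 h, 83.8 at 48 h, 67.9 with LTα1β2 at 24 h and 98.2 at 48 h. Most of this was Lyz2, with 61.7 CPM in control at 24 h and 82.9 with LTα1β2 at 48 h. The defining markers Ptprc, Adgre1, Itgam and Fcgr1 were not listed, and neither was any of 4 T-cell or 4 endothelial markers. In these bulk libraries a change in the share of expressing cells and a change in RNA per cell cannot be told apart. LTα1β2 at 48 h also stood apart by transcript length: the median log2 difference from control ran from 0.28 in the shortest 10th of genes to -0.30 in the longest, against 0.01 to 0.04 at 24 h.

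At 48 h all 7 genes were higher with LTα1β2 than in control beyond counting error, and each difference was larger than at 24 h. Slfn2 had the highest ratio at 48 h, 5.72, followed by Gbp5 with 5.42, Gbp3 with 3.97 and Gbp2 with 2.66. Gbp7, Igtp and Irgm1 stood at 1.75, 1.67 and 1.60. At 24 h Irgm1 and Igtp were both at 1.02 times control, within counting error of 1, while the other 5 genes ran from 1.36 to 2.61. In the limma test of treatment across both times, the 4 Gbp genes and Slfn2 rose and the 2 IRG genes did not pass.

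**Figure D2:**
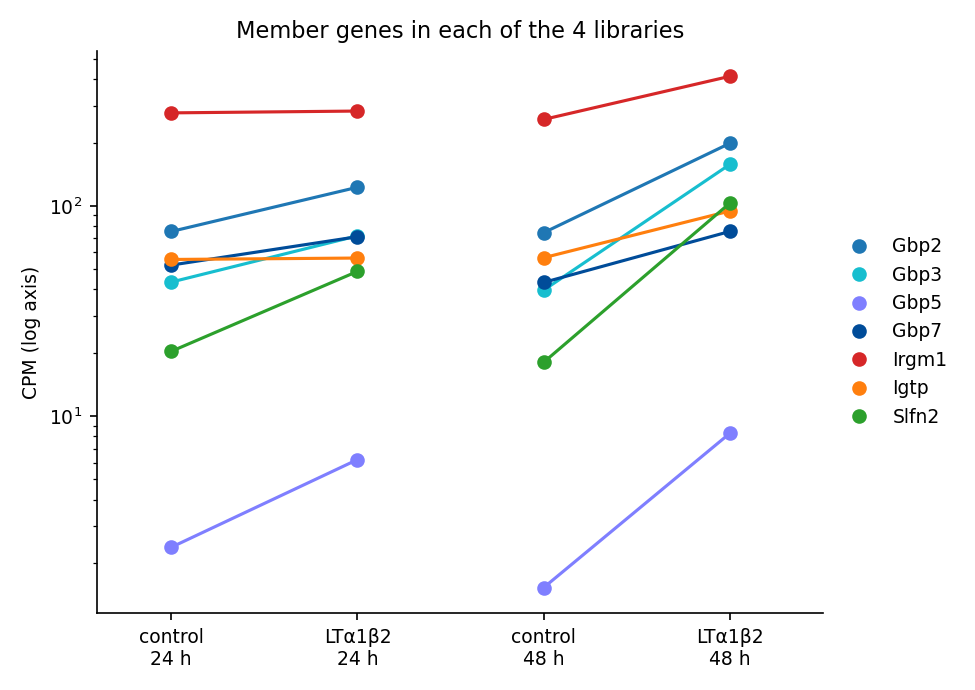
Level of each of the 7 genes in each of the 4 libraries, in CPM on a log axis, with 1 point per library. LTα1β2 at 48 h is the highest library for all 7 genes, and for Irgm1 and Igtp the other 3 libraries lie close together.

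Gbp2, a prenylated guanylate-binding protein that coats vacuoles, lies at chr3:142620602-142638008 on the forward strand of GRCm38 (ENSMUSG00000028270.12). It stood at 75.5 CPM in control at 24 h, 74.5 in control at 48 h, 123 with LTα1β2 at 24 h and 198 with LTα1β2 at 48 h. The controls lay close together, with a 48 h to 24 h ratio of 0.987, and both treated libraries were above both controls. The ratio of treated to control was 1.62 at 24 h (95% interval 1.51 to 1.75) and 2.66 at 48 h (2.47 to 2.87). These intervals are exact binomial ones on recovered reads and cover counting error only, not differences between cultures.

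Gbp3, a guanylate-binding gene next to Gbp7 in the same cluster, lies at chr3:142560026-142573209 on the forward strand (ENSMUSG00000028268.14). Its level was 43.4 CPM in control at 24 h, 39.7 in control at 48 h, 72.0 with LTα1β2 at 24 h and 157 with LTα1β2 at 48 h. The control level was slightly lower at the later time, while the treated level was 2.19 times as high at 48 h as at 24 h. The treated to control ratio was 1.66 (1.51 to 1.83) at 24 h and 3.97 (3.59 to 4.38) at 48 h. The 48 h ratio was 2.39 times the 24 h ratio (2.08 to 2.74), close to the 2.38 of Slfn2.

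Gbp5, known in the mouse for promoting inflammasome assembly, had the fewest reads of the 7. It lies at chr3:142493978-142522344 on the forward strand (ENSMUSG00000105504.4). It stood at 2.38 CPM in control at 24 h, 1.53 in control at 48 h, 6.21 with LTα1β2 at 24 h and 8.28 with LTα1β2 at 48 h, which were 38, 20, 93 and 94 reads. Both treated libraries were above both controls, and the low reads left wide intervals. Its ratio was 2.61 (1.77 to 3.92) at 24 h and 5.42 (3.32 to 9.28) at 48 h. Between the treated libraries the 48 h to 24 h ratio was 1.33 (0.991 to 1.80), which counting error alone does not separate from equality.

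Gbp7, a guanylate-binding protein linked to oxidative defence in mouse macrophages, lies at chr3:142530342-142550149 on the forward strand (ENSMUSG00000040253.15). It stood at 52.3 CPM in control at 24 h, 43.2 in control at 48 h, 71.3 with LTα1β2 at 24 h and 75.6 with LTα1β2 at 48 h. The treated libraries lay near each other, with a ratio of 1.06 (0.967 to 1.16), and the controls differed by a ratio of 0.827. Its treated to control ratio was 1.36 (1.25 to 1.5) at 24 h and 1.75 (1.57 to 1.95) at 48 h. The lower control at 48 h thus carried most of the step between the times.

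Irgm1, a regulatory IRG protein that protects the cell's own membranes and supports autophagy, lies at chr11:48861968-48871683 on the reverse strand (ENSMUSG00000046879.7). Its level was 277 CPM in control at 24 h, 258 in control at 48 h, 282 with LTα1β2 at 24 h and 413 with LTα1β2 at 48 h. LTα1β2 at 48 h was the highest library and the other 3 lay close together. The ratio was 1.02 (0.978 to 1.06) at 24 h and 1.60 (1.53 to 1.68) at 48 h.

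Igtp, the regulatory IRG protein also called Irgm3, lies at chr11:58199556-58207591 on the forward strand (ENSMUSG00000078853.8). It stood at 55.6 CPM in control at 24 h, 56.7 in control at 48 h, 56.5 with LTα1β2 at 24 h and 94.5 with LTα1β2 at 48 h. As with Irgm1, 3 libraries were level and LTα1β2 at 48 h was higher. The ratio was 1.02 (0.923 to 1.12) at 24 h and 1.67 (1.52 to 1.83) at 48 h.

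Slfn2 lies at chr11:83065112-83070678 on the forward strand (ENSMUSG00000072620.3). It stood at 20.3 CPM in control at 24 h, 18.0 in control at 48 h, 48.8 with LTα1β2 at 24 h and 103 with LTα1β2 at 48 h. The 4 libraries were in the same order as for Gbp3, and both treated ones were far above the controls. The ratio was 2.40 (2.10 to 2.74) at 24 h and 5.72 (4.97 to 6.6) at 48 h. Among the 12160 genes tested, its difference ranked 16th from the top at 24 h and 10th at 48 h.

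The order of the genes by level was read per kb of exon, in CPM per kb. In control at 24 h Irgm1 led with 47.7, followed by Gbp2 with 30.0, Igtp with 27.5, Gbp3 with 13.3, Slfn2 with 12.2, Gbp7 with 9.31 and Gbp5 with 0.358. Control at 48 h had the same order. The counting intervals of Gbp2 and Igtp, and of Gbp3 and Slfn2, overlapped in both controls, so those neighbours were not separated. With LTα1β2 at 24 h Gbp2 (48.7) and Irgm1 (48.6) were level and Slfn2 (29.3) was not separated from Igtp (27.9). With LTα1β2 at 48 h the order per kb was Gbp2 78.9, Irgm1 71.1, Slfn2 61.9, Gbp3 48.2, Igtp 46.7, Gbp7 13.5 and Gbp5 1.25, and of these neighbours Gbp3 and Igtp alone overlapped. Slfn2 moved from the fifth place in the controls to the third with LTα1β2. Summed over the 7 genes, the level was 526 CPM in control at 24 h, 491 in control at 48 h, 660 with LTα1β2 at 24 h and 1050 with LTα1β2 at 48 h.

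With 1 library in each group, no test was possible of treatment at a single time, so genes were counted there by size on the log2(CPM + 1) scale. At 24 h 2 of the 7 genes (Gbp5 and Slfn2) were at least 2-fold higher, against 42 of 12160 tested genes, which is 0.345%. At 48 h 4 of the 7 (Gbp2, Gbp3, Gbp5 and Slfn2) were, against 226 genes or 1.86%. The median log2 difference of the 7 genes was 0.69 at 24 h and 1.40 at 48 h, beside 0.02 and -0.09 over all tested genes. The step between the times ran one way: all 7 genes had a larger log2 difference at 48 h, as did 38.4% of all tested genes. With the length trend taken out, the log2 differences at 48 h ran from 0.61 for Igtp to 2.28 for Slfn2, and the median was 1.35. For all 7 genes the ratio at 48 h exceeded that at 24 h beyond counting error, with the lower bound of the step nearest to 1 in Gbp7 (1.11) and Gbp5 (1.12). In both, counting error did not separate the treated libraries of the times (48 h to 24 h ratios of 1.06 and 1.33). Their control ratios were 0.827 for Gbp7 and 0.643 (0.354 to 1.13) for Gbp5.

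**Figure D3:**
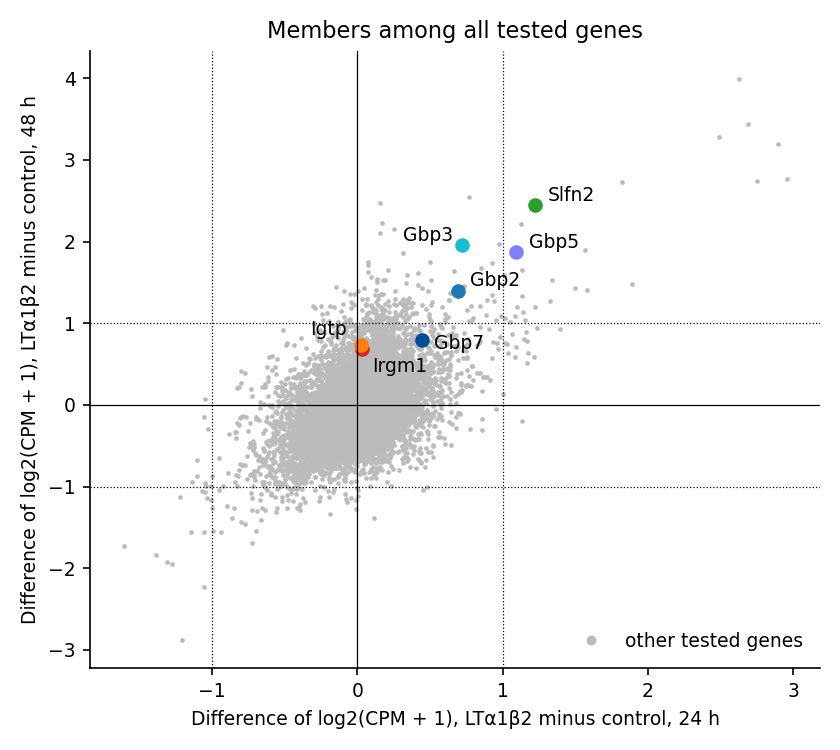
Log2 difference between LTα1β2 and control at 24 h (horizontal) and at 48 h (vertical), on the log2(CPM + 1) scale, with grey points for the tested genes and coloured, named points for the 7 genes. Irgm1 and Igtp sit near 0 horizontally and at 0.68 and 0.73 vertically, and Slfn2 is the farthest member from the origin, at 1.22 and 2.45.

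Treatment was tested in limma with time as a second term, so that the 24 h and 48 h pairs serve as repeats of the treatment. "Rose" is used of genes past its Benjamini-Hochberg adjusted p of 0.05. Slfn2 rose by a mean log2 difference of 1.84 ± 0.17 (SE; adjusted p = 7.53e-23, limma). Gbp5 rose by 1.49 ± 0.22 (5.49e-09), Gbp3 by 1.34 ± 0.17 (2.08e-12), Gbp2 by 1.05 ± 0.17 (1.47e-07) and Gbp7 by 0.62 ± 0.17 (0.0103). Irgm1 at 0.35 ± 0.17 (limma adjusted p = 0.279) and Igtp at 0.38 ± 0.17 (0.221) did not pass, which does not show that they were level. Thus 5 of the 7 rose and none fell, against 355 of 12160 genes that rose, which is 2.92%.

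The fit leaves 1 residual degree of freedom, and nothing says the libraries came from separate experiments. With the prior degrees of freedom estimated as infinite, the SEs and p-values rest on a spread borrowed from all genes. They do not measure how far a gene's own differences at 24 h and 48 h lay apart, such as 1.22 and 2.45 for Slfn2 or 0.03 and 0.68 for Irgm1. With 10 prior degrees of freedom in place of the estimated infinite number, 4 of the 7 rose (Slfn2, Gbp2, Gbp3 and Gbp5), against 39 genes or 0.321%, and limma's adjusted p was 0.0104 for Slfn2, 0.0442 for Gbp2 and Gbp3, and 0.180 for Gbp7. Without the time term 0 of the 7 passed, with the lowest limma adjusted p at 0.0763 (Slfn2 and Gbp5). A fit on 3 libraries cannot hold the time term and has an arm of 1 library, assumed to vary like the other arm, so it changes both the libraries and the model. Such a fit without control at 24 h called 3 of the 7 (Gbp3, Gbp5 and Slfn2) among 23 genes that rose, and without control at 48 h it called 2 (Gbp3 and Slfn2) among 16. Without LTα1β2 at 24 h it called all 7, where 1886 genes rose and 3063 fell in all. Without LTα1β2 at 48 h it called Gbp2, Gbp3, Gbp5, Gbp7 and Slfn2, where 402 rose and 370 fell. With the length trend removed Irgm1 rose too (adjusted p = 0.00479 in limma) and 6 of the 7 passed. In that fit calls were more frequent over all genes, where 801 of 12160 rose and 514 fell.

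**Figure D4:**
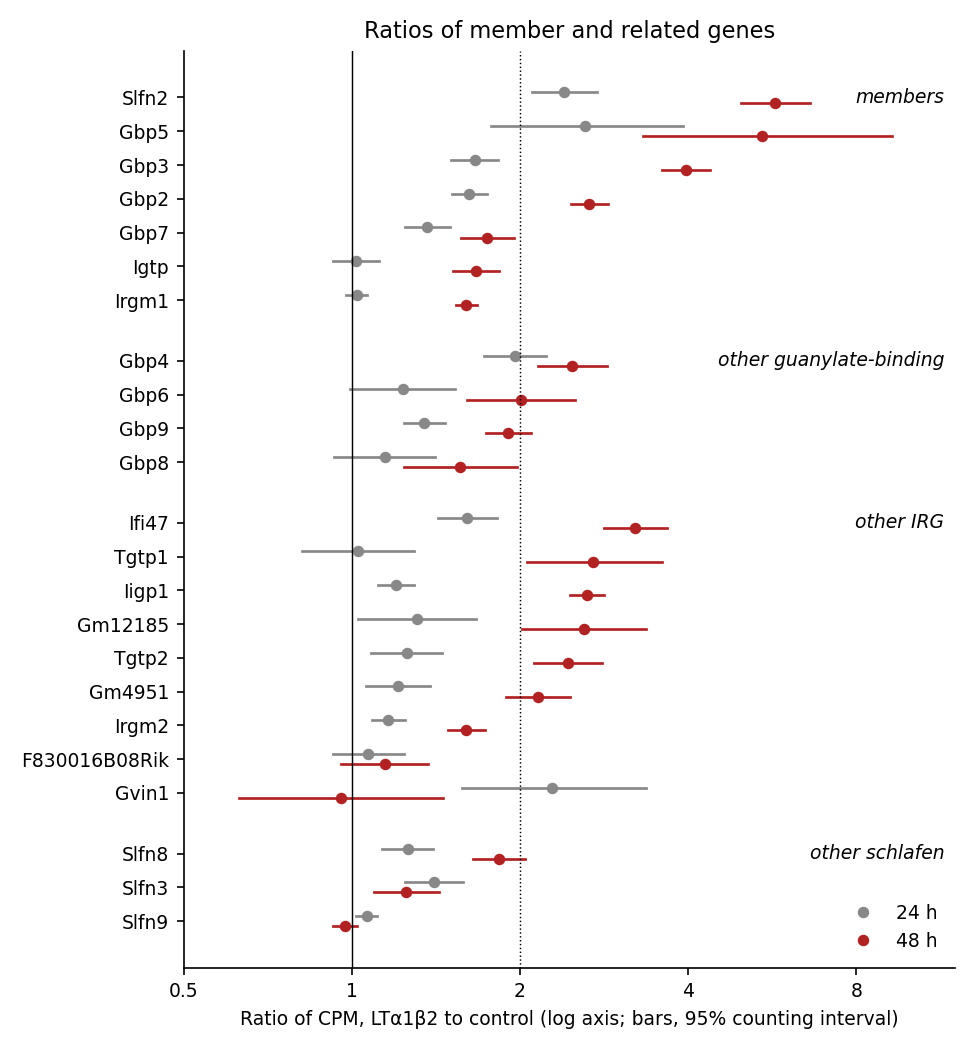
Ratio of CPM with LTα1β2 to control at 24 h and at 48 h, on a log axis, for the 7 genes and their relatives in the table, with 95% counting intervals. Slfn2, Gbp5 and Gbp3 have the highest ratios at 48 h (5.72, 5.42 and 3.97), and Slfn9 lies at 0.973.

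The relatives outside the 7 were listed to place them. Of 7 other guanylate-binding genes 4 were in the table, all in the chromosome 5 cluster, and 3 rose (Gbp4, Gbp6 and Gbp9), with medians of 0.35 on the log2 scale at 24 h and 0.93 at 48 h. With 10 prior degrees of freedom 1 did (Gbp4). Gbp4 stood at 23.6 and 21.7 CPM in control at 24 h and 48 h and at 46.3 and 53.8 with LTα1β2, a ratio of 1.96 at 24 h and 2.48 at 48 h. Gbp9 had ratios of 1.35 and 1.90 and Gbp6 of 1.23 and 2.01. Gbp8 had 1.14 and 1.56 and did not pass (adjusted p = 0.279, limma). Gbp4, Gbp8 and Gbp9 overlap on the same strand in the annotation, so their reads may have been split between them.

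Of 10 other IRG and related GTPase genes 9 were in the table, 6 of them rose in the test and none fell, with a median log2 difference of 0.27 at 24 h and 1.25 at 48 h. Ifi47 (Irgd), an effector IRG gene, stood at 27.9 and 24.5 CPM in the controls and 44.9 and 78.7 with LTα1β2, with ratios of 1.61 and 3.21. Effector genes Iigp1 (1.2 and 2.64), Tgtp1 (1.03 and 2.71) and Tgtp2 (1.25 and 2.43) rose, as did Gm4951 (1.21 and 2.15) and Gm12185 (1.31 and 2.60). Irgm2, the third regulatory gene, had ratios of 1.16 and 1.60 and, like Irgm1 and Igtp, did not pass (adjusted p = 0.110, limma). F830016B08Rik, at 1.07 and 1.14, did not pass either. Gvin1, a very large inducible GTPase gene, had 2.28 (1.57 to 3.36) at 24 h and 0.957 (0.627 to 1.46) at 48 h. In the fit on 3 libraries without LTα1β2 at 48 h, which sets 1 treated library against both controls with no time term, 1 of the 9 rose. With 10 prior degrees of freedom 0 did.

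Of 8 schlafen genes other than Slfn2, 3 were in the table and 1 of them rose, with a median log2 difference of 0.33 at 24 h and 0.32 at 48 h. Slfn8 rose, with ratios of 1.26 and 1.83, but did not pass with 10 prior degrees of freedom (adjusted p = 0.229, limma). Slfn3 had 1.40 and 1.25 and did not pass (adjusted p = 0.202, limma). Slfn9 stood at 269 and 262 CPM in the controls and 286 and 255 with LTα1β2, and its 48 h ratio was 0.973 (0.926 to 1.02). Among these 3, Slfn8 and Slfn9 held an ISRE core in their promoter window.

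Genes of the pathway that drives these families were read beside them. None of 7 interferon ligand genes was in the table. Of 8 tested receptor and JAK kinase genes 1 rose, Ifngr2, a subunit of the interferon-γ receptor, from 72.8 and 70.2 CPM in control to 106 and 117 with LTα1β2. Of 8 STAT and IRF genes 2 rose. Irf1, a transcription factor that binds ISRE-like sites, stood at 69.8 and 63.4 CPM in control and at 117 and 118 with LTα1β2, with log2 differences of 0.73 and 0.88. Irf7, the amplifier of type I interferon output, stood at 51.9 and 47.2 CPM in control and at 54.3 and 102 with LTα1β2. Irf1 was therefore already higher at 24 h, while Irf7 stood apart from control at 48 h, as Irgm1 and Igtp did. With 10 prior degrees of freedom 0 of the receptor and kinase genes and 0 of the STAT and IRF genes passed. No gene among 6 tested inhibitors of interferon signalling passed, which does not show that they were level, as the fit averages both times. Their median log2 difference was 0.14 at 24 h and 0.10 at 48 h, and 4 of the 6 were above control at 48 h. Usp18 had a ratio of 0.868 (0.779 to 0.968) at 24 h and 2.04 (1.85 to 2.26) at 48 h.

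Of 20 antiviral interferon-stimulated genes 13 rose, with a median log2 difference of 0.16 at 24 h and 1.07 at 48 h. In the fit of LTα1β2 at 24 h alone against both controls, with no time term, 6 rose, and with 10 prior degrees of freedom 0 did. Ifit3, an RNA-sensing antiviral gene, went from 134 and 113 CPM in control to 151 and 534 with LTα1β2. Of 13 tested genes of the interferon-γ class 8 rose, with medians of 0.44 and 0.88, and 3 did with 10 prior degrees of freedom. Cxcl10, a chemokine, stood at 7.50 and 9.93 CPM in control and at 24.2 and 39.8 with LTα1β2, and the immunoproteasome gene Psmb10 at 42.3 and 40.3 against 86.1 and 124. These were already higher at 24 h, as were the Gbp genes and Slfn2, whereas Ifit3 had a ratio of 1.13 at 24 h and 4.72 at 48 h. Neither list was uniform. Parp14 of the antiviral list had a 24 h ratio of 1.54 (1.44 to 1.65), and Tap1 of the interferon-γ class had 1.07 (1.00 to 1.14).

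None of 10 tested genes of LC3 conjugation, which direct IRG and Gbp proteins to vacuoles, passed, and none of 6 prenylation enzyme genes did. This does not show that they were level, as the fit averages both times. The LC3 conjugation genes had a median log2 difference of 0.05 at 24 h and 0.10 at 48 h. Among them Atg5 had a ratio of 1.02 (0.889 to 1.17) at 24 h and 1.91 (1.65 to 2.22) at 48 h. Among 4 listed inflammasome genes linked to Gbp proteins, Casp4, the mouse non-canonical inflammasome caspase (caspase-11), rose. It stood at 9.63 CPM in control at 24 h, 7.71 in control at 48 h, 22.2 with LTα1β2 at 24 h and 39.5 with LTα1β2 at 48 h.

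By Euclidean distance over 3 log2 differences (treatment at 24 h, treatment at 48 h and time in control) among the 10354 other genes that averaged 5 CPM or more, the genes nearest to the mean of the 7 were Clec2d (0.140), Gm13230 (0.152), Actr6 (0.218), Ifi208 (0.237) and Ifi47 (0.242). Casp4 (0.282), Zbp1 (0.566) and Tnfrsf9 (0.568) were nearest to Slfn2. These are distances over 4 libraries and 1 culture each, given as a description.

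Parts of the genes could not be told from their neighbours or copies. Of the 50-base stretches of each gene's exons, 12.7% in Gbp7 were shared with other genes, mostly with the pseudogene Gm43802 that overlaps it on the same strand (10.5%). In Igtp 11.8% were shared, with Irgm2, which overlaps it on the same strand, so reads may have been split between Igtp and Irgm2. The share was 4.27% in Slfn2, mostly with Slfn4, 3.75% in Gbp3, 2.03% in Gbp2, 1.44% in Gbp5 and 0.310% in Irgm1. Whether the authors' counting used the strand is not given in the sources used here, and Gbp2 and Slfn2 each have an antisense gene in the annotation that is not in the table.

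**Figure D5:**
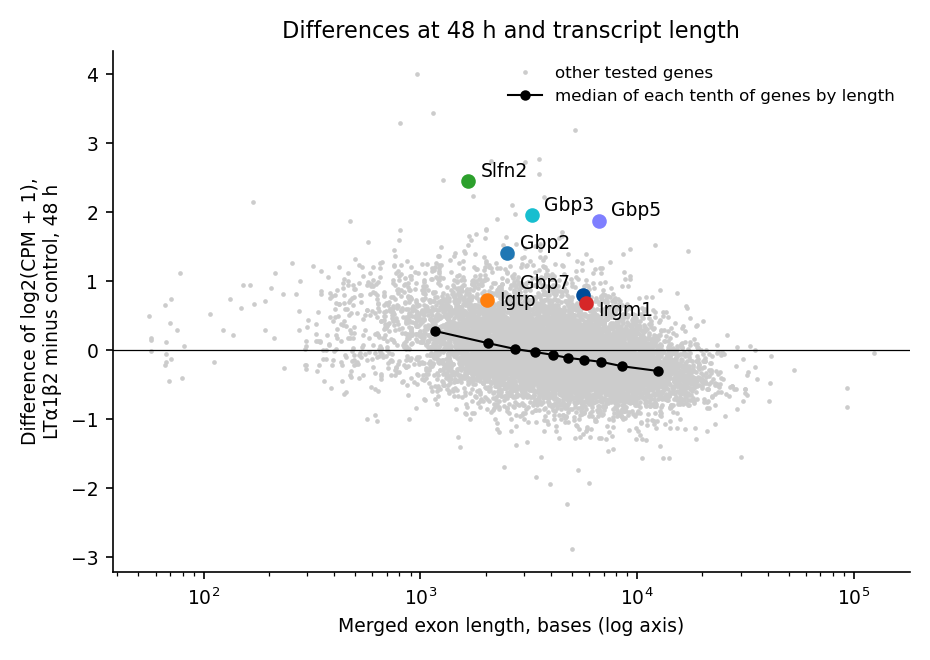
Log2 difference between LTα1β2 and control at 48 h against exon length in bases on a log axis, with grey points for the tested genes, joined black points for the median of each 10th of genes by length and named points for the 7 genes. The medians fall from 0.28 to -0.30 with length, and all 7 genes lie above them, with lengths from 1664 bases (Slfn2) to 6637 bases (Gbp5).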

How the data were processed

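RNA of 4 libraries of mouse 3T3 cells was sequenced as 150 bp read pairs from 1 µg of total RNA, per the labels' protocols. The authors deposited 1 table of CPM for 12208 genes; each CPM column sums to 1000000. The submitters' processing notes list edgeR 3.30.0. Aligner, counter, build and annotation: not given in the sources used here.

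The worth of 1 read was recovered from the CPM steps (whole within 0.01 of a read) and used for 95% Clopper-Pearson intervals of ratios; the step between the 24 h and 48 h ratios has a normal interval on the log scale with Poisson errors. These cover counting error only. Symbols, positions and exon lengths came from GENCODE M21 (GRCm38), matching 12205 identifiers. Log2 values are log2(CPM + 1), and so a low gene's change comes out too small. The 12160 genes averaging 1 CPM or more were fitted together in limma 3.58.1 (R 4.3.3). Terms were time and treatment, with trended empirical Bayes and two-sided Benjamini-Hochberg adjusted p. The working of the fit was checked on simulated counts with equal changes at both times and no effect of time. That check says nothing about spread between cultures. Promoter windows came from RefSeq. The length trend was a lowess fit (span 0.3).

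All 7 members were named by rule, as were relatives in the table. Cell type markers apart, at most 4 genes of each other list were named by size of change. Parp14 and Tap1 were named outside that rule, to show that their lists were not uniform. Members and lists were chosen with earlier results of these data known.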

Additional observations from a re-analysis of the deposited data

Results flagged for a closer look

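In Gvin1, Slfn9, Irf9 and Stat2 the log2 difference between LTα1β2 and control had opposite signs at 24 h and 48 h. Each time has 1 library a group, so the difference between the times was not tested across samples. Gvin1 stood at 0.95 at 24 h and -0.0500 at 48 h, from 43 to 92 reads per library, and its 48 h value was within counting error of 0. Slfn9 stood at 0.0874 and -0.0395, the latter within counting error of 0. Irf9 had -0.0015, within counting error of 0, and 0.53. Stat2 had -0.05, also within counting error of 0, and 0.50. Its level was 232 and 171 CPM in control at 24 h and 48 h, and 225 and 242 with LTα1β2. The lower control at 48 h thus carried most of the step between the times in Stat2. Usp18 was not among the genes read for this. It had -0.20 and 1.02, both beyond counting error.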

How the results depend on the processing

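No alternative that was run reversed the sign of a log2 difference of the 7 genes or of their median. Counts can only shrink or grow, so they had no sign to reverse. The count of 2 genes at least 2-fold higher at 24 h was 1 with a pseudocount of 5 and 1 when genes had to average 5 CPM, which leaves Gbp5 untested; at a 1.5-fold threshold it was 4 (1.48% of all tested genes passed), and at 48 h it was 7 (7.39%). The count of 5 that rose in limma was 0 without the time term, where 5 still had an unadjusted p under 0.05, and ranged from 2 to 7 in fits on 3 libraries, which drop both 1 library and the time term. With median-of-ratios scaling 4 rose, as Gbp7 missed the threshold (adjusted p = 0.0572, limma). The median log2 difference was 1.02 at 48 h with a pseudocount of 5, and 0.57 at 24 h and 1.10 at 48 h among genes averaging 5 CPM. Over all genes, calls that rose and fell went from 355 and 276 to 95 and 84 with median-of-ratios scaling, 801 and 514 after the length trend was taken out, 20 and 11 without the time term and 39 and 25 with 10 prior degrees of freedom. The causes were not tested. Count-model alternatives in edgeR and DESeq2 were not run. Libraries are paired by time in the fit itself. With 1 library a group, replicate numbers gave no further block. Gbp5, with 20 to 94 reads, is limited by depth.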
